A study of Mus musculus with 8 samples.

Results

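The genes described here are factors of nonsense-mediated mRNA decay (NMD), a pathway that destroys transcripts on which translation ends too early. The members are Upf1, Upf2, Upf3a, Upf3b, Smg1, Smg5 and Smg6, chosen by name for their known roles in the pathway. Earlier results of these data were known when the choice was made. They are 7 of the 23235 gene symbols in the deposited tables, and all 7 passed the filter on low values that left 15899 genes for testing. The study measured RNA from sorted mouse spermatocytes with and without CNOT4, a subunit associated with the CCR4-NOT deadenylase complex. Cells were sorted by flow cytometry with Hoechst and propidium iodide staining from 6-week-old C57BL/6 males, as leptotene and zygotene spermatocytes (LZ) or pachytene and diplotene spermatocytes (PD). Each of the 4 groups, WT LZ, Cnot4-null LZ, WT PD and Cnot4-null PD, had 2 libraries, described as biological replicates. Cnot4-null cells came from Cnot4 fl/fl;Stra8-Cre males, in which Cre driven by the Stra8 promoter deletes exon 2 of Cnot4 in male germ cells, so other cells of the testis keep the gene. The sample labels call the genotypes Cnot4-KO and Cnot4-WT; the sources used here give no further genotype for the WT males. The methods state 500 cells per sample and Smart-Seq2 libraries, while the sample labels describe Trizol extraction and TruSeq libraries from total RNA, and which of them was used was not determined.

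In NMD, the helicase UPF1 is recruited when a ribosome stops at a premature stop codon, often upstream of an exon junction complex that splicing left on the mRNA. UPF3B and its paralog UPF3A link that complex through UPF2 to UPF1, the kinase SMG1 phosphorylates UPF1, and SMG5 and SMG6 bind phosphorylated UPF1 and lead to decay of the transcript. In male germ cells the X chromosome is transcriptionally silenced at the pachytene stage, and Upf3b lies on the X chromosome while Upf3a is autosomal.

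The sequences of the paralogs Upf3a and Upf3b are shown first, since the ratio of the pair within each library is followed below. Among ungapped stretches of 50 bases, the pair below is the one in which their coding sequences are most alike. It covers coding positions 306 to 355 of Upf3a and 261 to 310 of Upf3b, counted from 1 at the start codon. Capitals mark the 10 positions at which they differ.
Upf3a: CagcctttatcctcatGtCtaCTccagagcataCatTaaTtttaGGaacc
Upf3b: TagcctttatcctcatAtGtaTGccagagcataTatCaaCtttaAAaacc
Even in this stretch the paralogs could be told apart by reads trimmed to 50 bases. No stretch of 50 bases in the longest transcript of either gene occurred in annotated protein-coding transcripts of other genes, the only sequences searched. That count was 0 for Upf2, Smg1 and Smg5, 17 of 4567 stretches for Upf1 (0.372%, shared with Gdf1 and Lass1) and 77 of 5799 for Smg6 (1.33%, shared with Srr).

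The promoters of the paralogs are shown because the levels of these genes moved in opposite directions between the stages in WT. Each is the 250 bases before the start of the gene in RefSeq, on build GRCm38.p6, written on the strand of the gene. Upf3a is at chr8:13785365-13785614 on the plus strand and Upf3b at chrX:37110323-37110572 on the minus strand. Capitals mark the letters CTCGCGAG, which were searched on both strands (the motif reads the same on both) and were chosen after the sequences had been seen.
Upf3a: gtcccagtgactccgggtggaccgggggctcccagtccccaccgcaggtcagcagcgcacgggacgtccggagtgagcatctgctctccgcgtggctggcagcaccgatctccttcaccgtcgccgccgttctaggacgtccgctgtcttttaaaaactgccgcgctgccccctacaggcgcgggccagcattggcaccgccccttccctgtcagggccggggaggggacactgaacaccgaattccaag
Upf3b: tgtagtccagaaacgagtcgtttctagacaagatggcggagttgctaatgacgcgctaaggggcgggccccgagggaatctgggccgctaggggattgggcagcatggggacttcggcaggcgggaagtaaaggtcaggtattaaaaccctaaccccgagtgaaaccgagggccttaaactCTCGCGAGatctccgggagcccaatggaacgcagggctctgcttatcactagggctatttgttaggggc
CTCGCGAG was present in the Upf3b window, 69 bases before the start, and in 250 of 32851 promoter windows of the same length (0.76%). TGACGTCA, the full cAMP response element, which also reads the same on both strands, was in neither window and in 1.55% of all windows. The match is a description of letters and not a measured site.

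On build mm9, to which the reads were aligned, all 7 members are annotated as protein-coding genes. Upf1 spans chr8:72855421-72877172 (minus strand, 24 exons in its longest transcript), Upf2 chr2:5872515-5977749 (plus, 22 exons) and Smg1 chr7:125274832-125387151 (minus, 63 exons). Upf3a spans chr8:13785615-13798538 (plus, 9 exons) and Upf3b chrX:34631673-34650335 (minus, 10 exons). Smg5 spans chr3:88140182-88166259 (plus, 22 exons) and Smg6 chr11:74739325-74977950 (plus, 19 exons).

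The values are FPKM, a measure that divides the fragments of a gene by transcript length and by library depth, so levels of different genes are compared per length. Throughout, values are given for replicate 1 and then replicate 2. Cnot4 itself was at 36.0 and 34.9 FPKM at LZ and 76.6 and 73.1 at PD in WT, and 43.2 and 34.6 at LZ and 65.9 and 53.5 at PD in Cnot4-null. The genotypes overlapped at LZ, and at PD both Cnot4-null libraries were below both WT libraries, but one value per gene cannot show the loss of 1 exon. Cnot4 differed by a log2 change of 0.12 at LZ (SE 0.20, limma adjusted p = 1.0) and by -0.33 at PD (SE 0.20, adjusted p = 0.192), neither past the threshold of 0.05. The PD value was -0.21 with quantile normalization and -1.75 with each library rescaled to the same median.

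The files hold no read counts. From the smallest steps between values in genes with a single transcript, the depth in units of 1e6 fragments was estimated at 6.06 and 6.31 for WT cells at LZ and 5.57 and 6.40 for Cnot4-null cells at LZ. At PD it was 7.35 and 7.94 for WT and 5.97 and 4.885 for Cnot4-null. These are estimates of the fragments behind the FPKM values and not of the reads sequenced or mapped, whose order over the libraries can differ. Genes above 1 FPKM numbered 11734 and 11823 at LZ and 10103 and 10076 at PD in WT, and 11822 and 11538 at LZ and 13887 and 14249 at PD in Cnot4-null. The Cnot4-null PD libraries therefore listed the most genes and the WT PD libraries the fewest. Spearman correlations across genes between duplicates, over genes that are not independent of each other, were 0.941 (LZ) and 0.968 (PD) for WT and 0.947 (LZ) and 0.892 (PD) for Cnot4-null.

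Markers of the sorted stages were summed in each library. The 7 measured of 8 LZ stage markers added up to 1348 and 1352 FPKM at LZ and 46.8 and 42.7 at PD in WT, and 1869 and 1297 at LZ and 462 and 397 at PD in Cnot4-null. Dazl was the most abundant of them in every library except Cnot4-null PD replicate 1, where Stra8 led at 228 FPKM. The 8 PD stage markers added up to 235 and 343 FPKM at LZ and 12211 and 11358 at PD in WT, and 250.004 and 95.6 at LZ and 5586 and 1952 at PD in Cnot4-null, with Ldhc most abundant except in Cnot4-null LZ replicate 2, where Hspa2 led. The sums of the Cnot4-null PD libraries thus lay between those of the LZ and WT PD libraries on both lists, and neither list had a gene at 0 in any library. The paper checked the sorted populations by immunofluorescence and reports similar stage proportions in both genotypes. It also reports Dmc1, a gene of the LZ list, as higher in Cnot4-null spermatocytes. Whether the sums reflect stage or genotype was not tested. For genotype at PD, 41.6% of all genes were called higher and 11.5% lower on the deposited scale, 17.8% and 25.6% with quantile normalization, and 23.3% and 40.1% with each library rescaled to the same median. At PD, 7 of the 7 LZ markers rose in Cnot4-null on the deposited scale, 4 with quantile normalization and 6 with the rescaling, and 2 of the 8 PD markers fell, 2 with quantile normalization and 8 with the rescaling.

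Markers of other testis cells were read beside these shares of all genes, and their part in the results on the NMD factors was not tested. The 7 Leydig markers, all of which rose in Cnot4-null at PD, added up to 17.6 and 11.2 FPKM at LZ and 116 and 7.15 at PD in WT, and 10.9 and 19.0 at LZ and 10025 and 22220.4 at PD in Cnot4-null. Insl3 alone gave 9669 and 21608 of the last pair, while Lhcgr was at 0 in every LZ library and in WT PD replicate 2. The 6 peritubular and matrix markers, all of which rose, went from 17.3 and 1.55 FPKM in WT PD to 281 and 744 in Cnot4-null PD, with Dcn most abundant there, against 1.26 and 5.30 in WT LZ and 2.27 and 1.46 in Cnot4-null LZ. Sertoli markers (5 of 6 tested rose) added up to 62.5 and 55.9 FPKM at LZ and 9.75 and 18.9 at PD in WT, and 6.49 and 10.2 at LZ and 106 and 226 at PD in Cnot4-null, Clu being the most abundant, and Amh was at 0 in 7 of the 8 libraries. Macrophage markers (2 of 5 tested rose, against 41.6% of all genes) added up to 20.4 and 1.03 FPKM at LZ and 2.29 and 2.93 at PD in WT, and 5.24 and 4.33 at LZ and 16.4 and 57.4 at PD in Cnot4-null, with Lyz2 most abundant in Cnot4-null PD.

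Germ cells outside the gates were read in the same way. The 6 spermatogonial markers, all of which rose in Cnot4-null at PD, added up to 644 and 618 FPKM at LZ and 18.2 and 12.4 at PD in WT, and 414 and 585 at LZ and 283 and 394 at PD in Cnot4-null, where Uchl1 was the most abundant. The spermatid markers (5 of 6 rose) added up to 1827 and 1502 FPKM at LZ and 542 and 399 at PD in WT, and 4026 and 703 at LZ and 15751 and 7091 at PD in Cnot4-null, with Prm1 most abundant in the last pair. No spermatogonial or spermatid marker was at 0 in any library, and each WT library and each LZ library had at least 1 of the Leydig, Sertoli, macrophage or peritubular markers at 0. In the Cnot4-null PD libraries the only marker at 0 was Amh, in replicate 1. With quantile normalization the calls higher in Cnot4-null at PD were 7 Leydig, 5 peritubular, 1 Sertoli, 0 macrophage, 4 spermatogonial and 5 spermatid markers. With the rescaling they were 7, 6, 3, 2, 5 and 5, and 1 spermatid marker was called lower. The 0 of 5 macrophage markers called by limma with quantile normalization had 0 at an unadjusted p under 0.05. At LZ, limma called 0 of the 51 marker genes tested between the genotypes, and 6 of them had an unadjusted p under 0.05, as did 1013 of all genes tested. In bulk RNA, fewer cells of a type and less RNA per cell cannot be told apart.

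Levels of the NMD factors are taken in the order of their roles. Upf1, the ATP-dependent helicase at the core of the pathway, was at 11.6 and 7.997 FPKM at LZ and 10.3 and 9.97 at PD in WT, and 12.8 and 12.7 at LZ and 16.5 and 15.7 at PD in Cnot4-null. Both Cnot4-null libraries were above both WT libraries at each stage, and the WT stages overlapped. Upf2, the adaptor between UPF1 and the UPF3 proteins, was at 24.7 and 22.2 FPKM at LZ and 18.9 and 20.8 at PD in WT, and 29.0 and 22.6 at LZ and 21.1 and 17.2 at PD in Cnot4-null. The genotypes overlapped at both stages, and in each genotype the PD libraries were below the LZ libraries.

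Upf3a, the paralog that binds UPF2 and can act either weakly in NMD or against it, was at 25.2 and 29.7 FPKM at LZ and 157 and 147 at PD in WT, and 25.6 and 26.1 at LZ and 126 and 73.4 at PD in Cnot4-null. All 4 PD libraries were far above all 4 LZ libraries, and at PD the Cnot4-null libraries were below the WT libraries and further apart from each other. Upf3b, the paralog that joins UPF2 to the exon junction complex, was at 4.23 and 5.19 FPKM at LZ and 0.645 and 0.355 at PD in WT, and 8.47 and 10.5 at LZ and 7.90 and 5.72 at PD in Cnot4-null. The WT PD libraries were the lowest of the 8 and the Cnot4-null LZ libraries the highest, and no pair of compared groups overlapped. By the depth estimate, the Upf3b values stood for about 60.1 and 76.8 fragments at LZ and 11.1 and 6.60 at PD in WT, and 111 and 157 at LZ and 111 and 65.45 at PD in Cnot4-null, so counting error is largest for this gene in WT PD.

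Smg1, the kinase that phosphorylates UPF1, was at 14.7 and 14.9 FPKM at LZ and 10.3 and 10.5 at PD in WT, and 20.6 and 18.0 at LZ and 11.1 and 16.8 at PD in Cnot4-null. The genotypes did not overlap at either stage, although at PD the lower Cnot4-null library was close to WT. Smg5, which binds phosphorylated UPF1 and helps to bring in phosphatase and decay factors, was at 14.2 and 12.1 FPKM at LZ and 24.8 and 24.7 at PD in WT, and 14.0 and 17.0 at LZ and 22.8 and 20.8 at PD in Cnot4-null. Every PD library was above every LZ library, and at PD the Cnot4-null libraries were the lower pair. Smg6, the endonuclease that cuts the target transcript, was at 10.3 and 9.23 FPKM at LZ and 12.3 and 12.5 at PD in WT, and 14.2 and 12.8 at LZ and 18.9 and 15.3 at PD in Cnot4-null. Both Cnot4-null libraries were above both WT libraries at each stage.

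**Figure D1:**
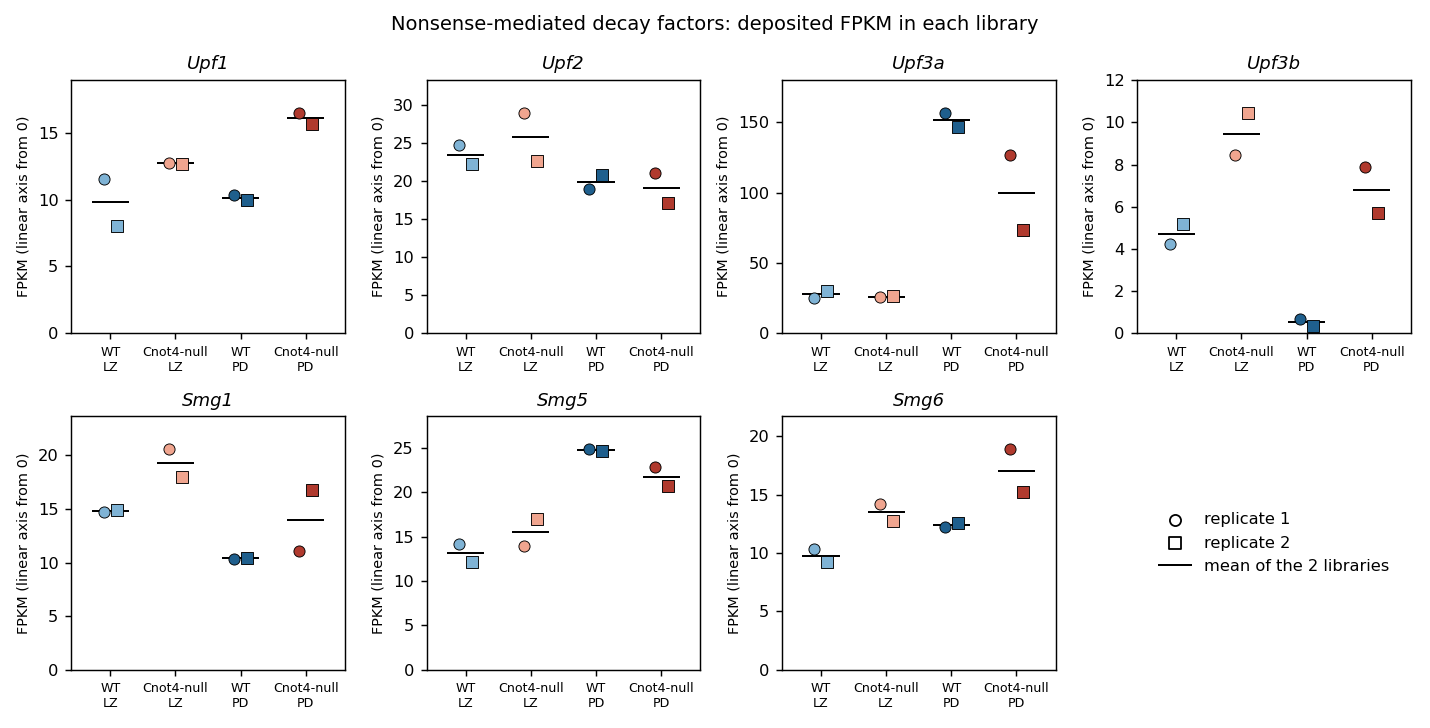
Deposited FPKM (vertical axis, linear from 0, a separate scale for each gene) of the 7 NMD factors in the 4 groups; circles are replicate 1, squares replicate 2 and lines the mean of the 2 libraries. Upf3a reached 73.4 to 157 FPKM in the PD libraries against 25.2 to 29.7 in the LZ libraries, and Upf3b was below 1 FPKM only in WT PD (0.645 and 0.355).

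On this scale per length, Upf3b was the lowest of the 7 in every library. Upf3a was the highest in every library except Cnot4-null LZ replicate 1, where Upf2 was above it (29.0 against 25.6 FPKM), so these neighbours did not differ beyond the spread between duplicates in Cnot4-null at LZ. In each PD library the order began with Upf3a, Smg5 and Upf2, and the values of Smg5 and Upf2 overlapped in Cnot4-null PD but not in WT PD. In every group at least 1 of Upf1, Smg1 and Smg6 took a different place in the duplicates.

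A rank within a library does not change when that library is rescaled. Among the 15899 genes tested, Upf3a stood at percentiles 77.0 and 80.0 at LZ and 93.9 and 93.5 at PD in WT, and 76.2 and 78.7 at LZ and 92.6 and 91.6 at PD in Cnot4-null. Upf3b stood at 45.8 and 48.6 at LZ and 31.4 and 26.5 at PD in WT, and at 56.5 and 62.2 at LZ and 49.5 and 40.4 at PD in Cnot4-null. For Upf3b, both Cnot4-null libraries ranked above both WT libraries at each stage. Smg5 ranked at 66.2 and 63.7 at LZ and 78.0 and 78.1 at PD in WT, and at 65.4 and 71.2 at LZ and 71.6 and 72.4 at PD in Cnot4-null, with the WT PD libraries at the top. Upf1 (56.1 to 66.3), Smg6 (58.8 to 69.1), Smg1 (57.0 to 72.5) and Upf2 (67.9 to 78.3) moved over ranges narrower than those of the paralogs. At PD the ranks of Upf1 in Cnot4-null (65.2 and 65.7) were not above those in WT (66.3 and 65.9), unlike its FPKM. The same held for Smg6, at 67.8 and 65.0 in Cnot4-null against 68.7 and 69.1 in WT. The ranks of Smg1 at PD overlapped, at 57.0 and 67.4 in Cnot4-null and 66.2 and 66.6 in WT.

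**Figure D2:**
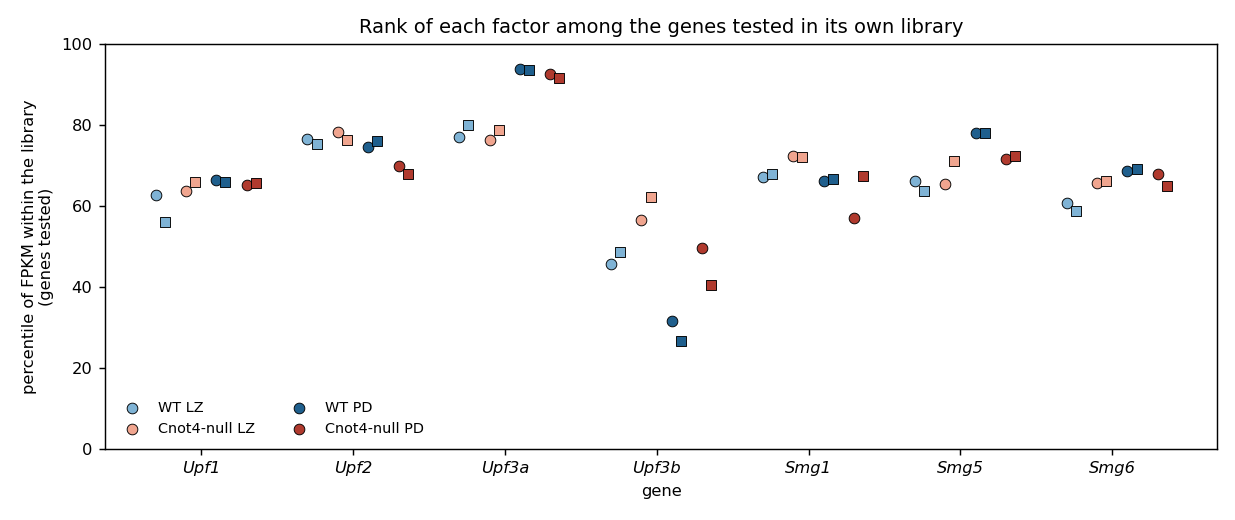
Percentile of FPKM (vertical axis, 0 to 100) of each NMD factor (horizontal axis) among the 15899 genes tested in its own library; colours mark the 4 groups, circles replicate 1 and squares replicate 2. Upf3a lies above 91 in the PD libraries and Upf3b below 32 in the WT PD libraries.

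The first comparison asks what loss of CNOT4 does to these transcripts in early meiotic prophase, Cnot4-null LZ against WT LZ. Upf3b had the largest difference among the members, with a ratio of mean FPKM of 2.01, and both Cnot4-null libraries were above both WT libraries for Upf3b, Upf1, Smg1 and Smg6. Those 4 members without overlap compare with 18.2% of all genes tested that had both Cnot4-null libraries above both WT libraries and 18.0% with both below, where no member lay. None of the 7 passed the test across all genes. Fits were made on log2(FPKM + 1), which understates changes of genes with low values. The log2 change of Upf3b was 0.87 (SE 0.28, 95% interval 0.22 to 1.52), with an unadjusted p of 0.0152 and a limma adjusted p of 0.659. The other log2 changes ran from -0.08 for Upf3a (adjusted p = 1.0) to 0.43 for Smg6 (SE 0.21, adjusted p = 0.835), with 0.37 for Upf1, 0.36 for Smg1, 0.22 for Smg5 and 0.12 for Upf2. With limma, 0 of the 7 members were called and 1 had an unadjusted p under 0.05, as did 1013 of all 15899 genes. Calls over all genes numbered 15 (0.0943%), 11 higher (0.0692%) and 4 lower (0.0252%). Without WT LZ replicate 1 that count of all genes was 25, and it was 9 without either WT PD library. With either WT LZ library left out, more of the called genes were lower than higher, the reverse of the full fit. Upf2 turned direction, to -0.05, without Cnot4-null LZ replicate 1, and Upf3a, to 0.03, without WT LZ replicate 2. With 2 libraries in each group, the smallest two-sided p of an exact permutation test is 0.333, so the tests here rest on the spread shared over genes and groups in limma.

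The next comparison asks the same at the later stage, Cnot4-null PD against WT PD. Upf3b rose, from 0.645 and 0.355 FPKM to 7.90 and 5.72, a ratio of means of 13.6. It was the only member called on the deposited scale. Rescaling each library to the same median called all 7, with Upf3b higher (23.3% of all genes) and the other 6 lower (40.1%). The rescaling multiplies every gene of a library by the same number, so those 6 lower calls share a shift and are not separate results. Before it, autosomal genes had a median of 8.56 and 9.01 FPKM for Cnot4-null at PD, against 3.70 and 3.63 for WT. Upf3a (126 and 73.4 FPKM against 157 and 147) and Smg5 were lower in both Cnot4-null libraries without passing the test. Upf1, Smg1 and Smg6 were higher in both, but their sign turned under quantile normalization and under the rescaling.

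In the fit, Upf3b had a log2 change of 2.37 (SE 0.28, 95% interval 1.72 to 3.02, limma adjusted p = 0.000668) and was called in 16 of 16 alternatives, from 1.06 with quantile normalization to 3.55 with a pseudocount of 0.1 (adjusted p 0.000513 to 0.0352). The median of all genes in this comparison was 0.66, and it moved to -0.10 with quantile normalization and to -0.21 with the rescaling. For Upf3a, Smg5 and Upf2, quantile normalization gave changes of -0.35, -0.51 and -0.51, and the rescaling -2.07, -1.56 and -1.42. Relative to the median of all genes, Upf3b was higher by 1.71. Upf3a (-0.65, adjusted p = 0.0761) was below that median by 1.31, Smg5 (-0.18, adjusted p = 0.466) by 0.84 and Upf2 (-0.06, adjusted p = 0.839) by 0.72. Smg1 (0.37, adjusted p = 0.223; -0.31 and -0.96 with quantile normalization and the rescaling) was below it by 0.30. Smg6 (0.42, adjusted p = 0.121; -0.19 and -0.92) was below it by 0.24, and Upf1 (0.62, adjusted p = 0.0548; -0.05 and -0.72) by 0.05.

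At PD, 1 of 7 members was called higher and 0 lower by limma. An unadjusted p under 0.05 was found for 3 members (Upf1, Upf3a and Upf3b) and for 9601 of all genes tested. Calls over all genes numbered 8449 (53.1%), 6619 higher (41.6%) and 1830 lower (11.5%). Both Cnot4-null libraries were above both WT libraries for 4 members, against 58.2% of all genes, and below for 2, against 23.1%. Of the calls over all genes, 78.3% were higher on the deposited scale, 41.0% with quantile normalization and 36.7% with the rescaling, which called 43.5% and 63.4% of all genes. Some calls hung on 1 library. Upf3a passed without Cnot4-null PD replicate 1 (-1.04, adjusted p = 0.00389, range over its 16 alternatives 0.000831 to 0.243), and so did Smg1 (0.64, adjusted p = 0.0171, range 0.00718 to 0.653). Smg6 passed without Cnot4-null PD replicate 2 (0.57, adjusted p = 0.0407, range 0.00675 to 0.473), and Upf1 without WT LZ replicate 1 or 2 (adjusted p = 0.0376 and 0.0368, range 0.0301 to 0.892). Upf2 turned to 0.01 without WT PD replicate 2 and to 0.08 without Cnot4-null PD replicate 2. Without WT PD replicate 1 or 2, 4341 and 4057 of all genes were called.

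**Figure D3:**
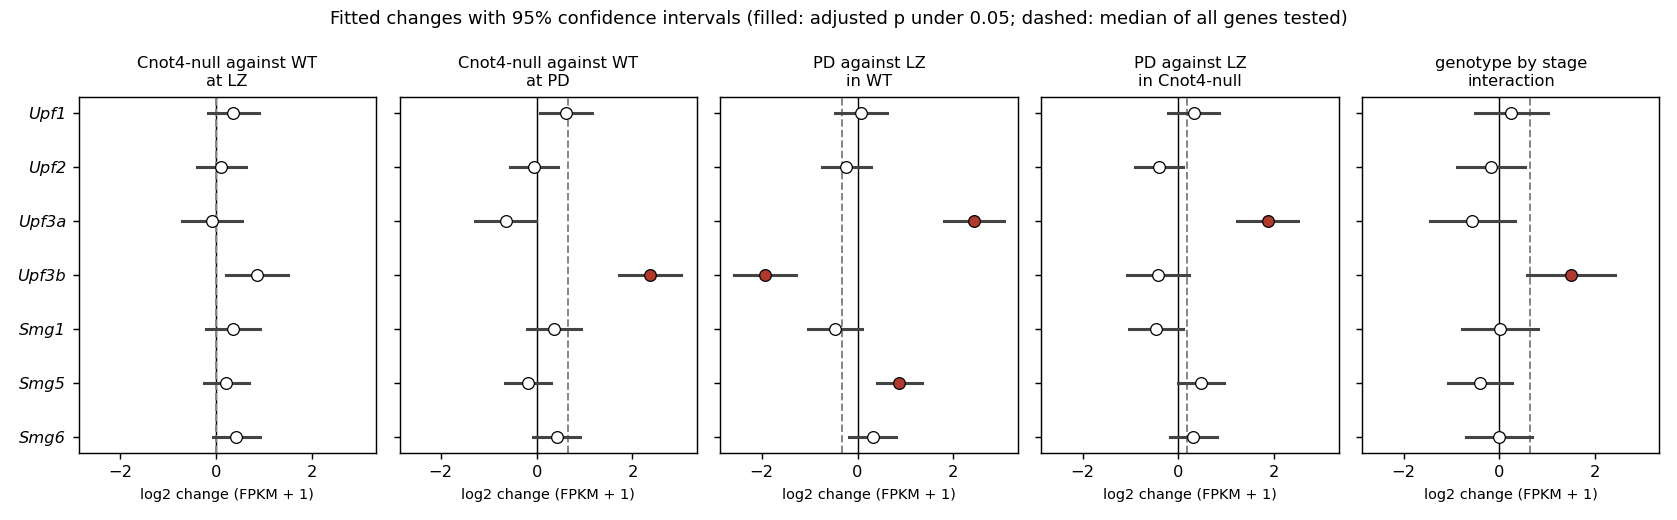
Log2 changes of FPKM + 1 (horizontal axes) of the 7 NMD factors in the 5 comparisons, with 95% confidence intervals as bars; filled points have an adjusted p under 0.05 and dashed lines mark the median of all genes tested. Upf3b is filled at 2.37 for genotype at PD, -1.93 for stage in WT and 1.50 for the interaction, Upf3a at 2.43 and 1.86 for stage in WT and Cnot4-null, and Smg5 at 0.87 for stage in WT; the points of Upf1, Smg1 and Smg6 for genotype at PD turn sign with other scalings.

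The comparison of stages in WT asks how the factors change as meiosis proceeds with CNOT4 present. Upf3a rose from 25.2 and 29.7 FPKM to 157 and 147, a ratio of means of 5.52, and Upf3b fell from 4.23 and 5.19 to 0.645 and 0.355, a ratio of 0.106. Smg5 rose from 14.2 and 12.1 FPKM to 24.8 and 24.7, a ratio of 1.89. The directions of these 3 held under both other scalings; Upf1, Upf2, Smg1 and Smg6 did not pass on the deposited scale, while quantile normalization called Smg6 higher (0.69), and the rescaling to the same median called Upf1, Upf2 and Smg6 higher as well and turned the sign of Upf2 (0.62) and Smg1 (0.35).

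The log2 change of Upf3a was 2.43 (SE 0.27, limma adjusted p = 0.000221), called in 16 of 16 alternatives with values of 2.08 to 3.31. That of Upf3b was -1.93 (SE 0.28, adjusted p = 0.000736), called in 16 of 16, from -3.04 to -1.22. That of Smg5 was 0.87 (SE 0.20, adjusted p = 0.00757), and its call was lost without WT PD replicate 1 (adjusted p = 0.0533) and without replicate 2 (0.0522), over a range of 0.000388 to 0.0533 in its 16 alternatives. The median of all genes was -0.32 here, -0.06 with quantile normalization and 0.05 with the rescaling. Relative to it, Upf3a was higher by 2.74, Smg5 by 1.19, Smg6 (0.32, adjusted p = 0.239) by 0.63, Upf1 (0.07, adjusted p = 0.852) by 0.38 and Upf2 (-0.23, adjusted p = 0.410) by 0.09. Upf3b lay below it by 1.61 and Smg1 (-0.47, adjusted p = 0.133) by 0.16.

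In WT, 2 of 7 members were called higher and 1 lower between the stages, and 9190 of all genes were called (57.8%), 3436 higher (21.6%) and 5754 lower (36.2%). Both PD libraries were above both LZ libraries for 3 members (Upf3a, Smg5 and Smg6), against 31.0% of all genes, and below for 3 (Upf2, Upf3b and Smg1), against 50.2%. Of the calls, 37.4% were higher on the deposited scale, 46.1% with quantile normalization and 54.8% with the rescaling. Quantile normalization called 25.9% of all genes higher and 30.3% lower here, and the rescaling 32.5% and 26.8%. Smg1 passed when Cnot4-null PD replicate 1 or 2 was left out, although neither enters its change (adjusted p = 0.0217 and 0.0234), and in a fit of only the WT libraries (adjusted p = 0.0227), which called 4 members, 2 of them higher (24.4% of all genes) and 2 lower (39.7%). The range of its adjusted p over 16 alternatives was 0.0217 to 0.844. Upf1 turned to -0.17 without WT LZ replicate 2.

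The comparison of stages in Cnot4-null used the other 4 libraries. Upf3a rose from 25.6 and 26.1 FPKM to 126 and 73.4, a ratio of means of 3.87, and it was the only member called on the deposited scale, where quantile normalization called 3 (Upf3a higher, Upf2 and Upf3b lower) and the rescaling 4 (Smg1 lower as well). Upf3b went from 8.47 and 10.5 FPKM to 7.90 and 5.72, lower in every pair but not past the test, where quantile normalization (-1.04) and the rescaling (-0.93) called it lower. Smg5 was higher at PD in every pair, a direction that the rescaling turned (-0.09).

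Upf3a had a log2 change of 1.86 (SE 0.27, limma adjusted p = 0.00182), called in 16 of 16 alternatives from 1.27 to 2.25 and above the median of all genes (0.19) by 1.68. That median was -0.29 with quantile normalization and -0.22 with the rescaling. Upf3b had a log2 change of -0.43 (SE 0.28, adjusted p = 0.233), Smg1 of -0.46 (adjusted p = 0.151) and Upf2 of -0.41 (adjusted p = 0.158). Smg5 was at 0.47 (adjusted p = 0.0940), and Upf1 and Smg6 were both at 0.31 (adjusted p = 0.288 and 0.252; both turned to -0.24 with the rescaling). Smg1 passed without Cnot4-null PD replicate 2 (-0.74, adjusted p = 0.0153, range 0.00757 to 0.383).

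Called members in Cnot4-null were 1 of 7 higher and 0 lower by limma. An unadjusted p under 0.05 was found for 1 member and for 8602 of all genes tested. Calls over all genes numbered 7316 (46.0%), 4423 higher (27.8%) and 2893 lower (18.2%). Both PD libraries were above both LZ libraries for 4 members, against 40.3% of all genes, and below for 3, against 31.1%. Of the calls, 60.5% were higher on the deposited scale, 37.4% with quantile normalization and 39.1% with the rescaling. All genes called higher and lower were 18.7% and 31.4% with quantile normalization and 20.9% and 32.6% with the rescaling. Without Cnot4-null LZ replicate 1 or 2, 4644 and 4828 of all genes were called.

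The interaction asks whether the genotype difference at PD is larger than at LZ, and it is the only test of a difference between the comparisons above, which share libraries with each other. Upf3b passed it, with a genotype difference larger at PD by a log2 value of 1.50 (SE 0.39, 95% interval 0.58 to 2.42, limma adjusted p = 0.0279), while quantile normalization (0.17) and the rescaling (0.62) kept the sign without a call. The call was also lost without any 1 of the 6 libraries other than Cnot4-null PD. Its adjusted p was 0.0571 and 0.0752 without WT LZ replicate 1 and 2, 0.0865 and 0.0616 without Cnot4-null LZ replicate 1 and 2, and 0.0840 and 0.126 without WT PD replicate 1 and 2. Upf3b was called in 7 of 15 alternatives (adjusted p 0.0139 to 0.809). Upf3a was at -0.57 (adjusted p = 0.280) and passed only without Cnot4-null PD replicate 1 (-0.96, adjusted p = 0.0140) and with the rescaling (-2.03, adjusted p = 0.00723), over a range of 0.00723 to 0.499.

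The other members had interaction values of -0.40 for Smg5 (adjusted p = 0.307), 0.25 for Upf1 (0.567), -0.18 for Upf2 (0.670), 0.01 for Smg1 (0.985) and -0.01 for Smg6 (0.990), and the rescaling called all 5 lower, as it did 32.4% of all genes, turning the sign of Upf1 and Smg1. Without 1 library the sign of Smg1 turned (-0.08 without Cnot4-null LZ replicate 2 and -0.27 without Cnot4-null PD replicate 2), as did that of Smg6 (0.07 without WT LZ replicate 2 or Cnot4-null LZ replicate 1, 0.01 without WT PD replicate 2, 0.14 without Cnot4-null PD replicate 2). The 5 lower calls with the rescaling share the same factor within each library, so they are not separate results. On the deposited scale limma called 1 of 7 members higher and 0 lower, with 1 at an unadjusted p under 0.05, as were 6995 of all genes tested. Calls over all genes numbered 4770 (30.0%), 4139 higher (26.0%) and 631 lower (3.97%). The median of all genes was 0.64, -0.13 with quantile normalization and -0.30 with the rescaling, and Upf3b was above the first by 0.86. Higher calls made up 86.8% on the deposited scale, 44.1% with quantile normalization and 29.6% with the rescaling. Quantile normalization called 9.74% of all genes higher and 12.4% lower, and the rescaling 13.6% and 32.4%. Leaving out 1 library gave from 1656 calls over all genes (without WT PD replicate 2) to 7929 (without Cnot4-null PD replicate 1), with 1777 without WT PD replicate 1, 2569 and 3151 without WT LZ replicate 1 and 2, and 2710 and 2299 without Cnot4-null LZ replicate 1 and 2.

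The ratio of Upf3a to Upf3b within a library does not depend on how libraries are scaled to each other by a constant. It was 5.95 and 5.73 at LZ and 243 and 414 at PD in WT, and 3.02 and 2.49 at LZ and 16.0 and 12.8 at PD in Cnot4-null. The 4 groups did not overlap, and the ratio was lower in Cnot4-null than in WT at both stages and higher at PD than at LZ in both genotypes. Of the summed FPKM of the paralogs, Upf3a made up 85.6% and 85.1% at LZ and 99.6% and 99.8% at PD in WT, and 75.1% and 71.4% at LZ and 94.1% and 92.8% at PD in Cnot4-null. On the log2 scale with a pseudocount of 1, the ratio was higher at PD than at LZ by 4.36 (SE 0.09, n = 2 and 2) in WT and by 2.29 (SE 0.22, n = 2 and 2) in Cnot4-null, and no test was made of either. The pseudocount is larger than Upf3b in WT PD (0.645 and 0.355 FPKM), so it shrinks the difference in WT and its SE. Unlike the plain ratio, the value with a pseudocount also depends on the scale of a library. The WT PD ratios rest on about 11.1 and 6.60 fragments of Upf3b.

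**Figure D4:**
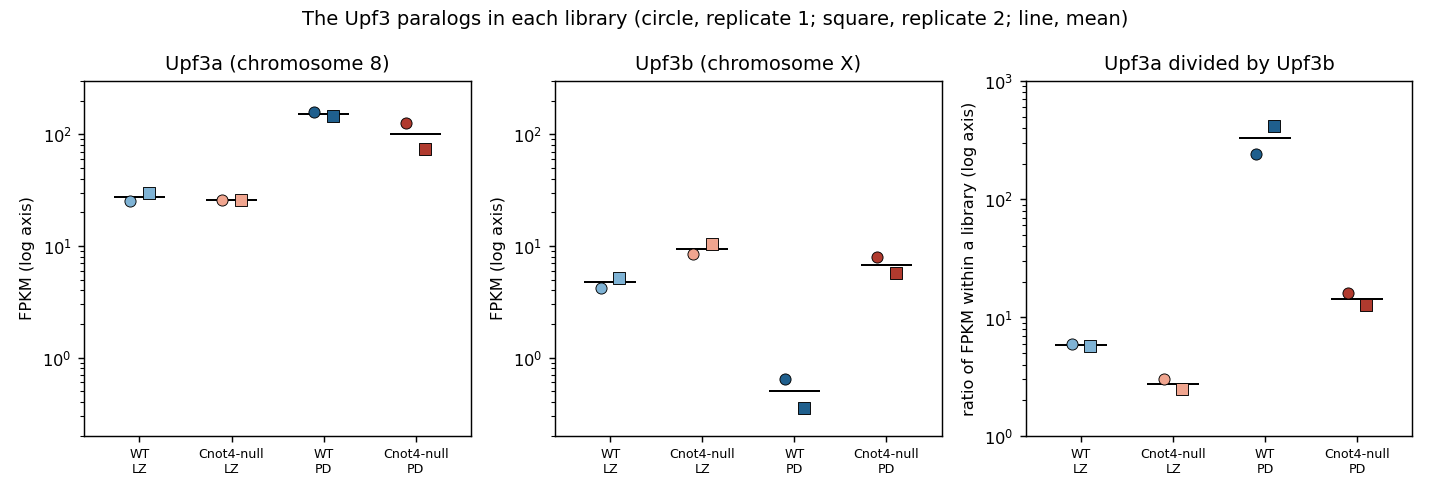
FPKM of Upf3a and Upf3b and their ratio within each library (vertical axes, all log) in the 4 groups; circles are replicate 1, squares replicate 2 and lines the mean. At PD the ratio is 243 and 414 for WT and 16.0 and 12.8 for Cnot4-null, against 2.49 to 5.95 in the LZ libraries.

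Upf3b was set beside the 648 genes of the X chromosome that were tested, since it is the only X-linked member. Their median FPKM was 3.69 and 3.81 at LZ and 0.250 and 0.213 at PD in WT, and 4.86 and 3.90 at LZ and 3.82 and 4.65 at PD in Cnot4-null. The X-linked genes as a group were thus lowest in the same libraries as Upf3b. For genotype at PD, their median log2 change was 1.95 (0.61 for 14560 autosomal genes), 482 were called higher (74.4%) and 2 lower (0.309%), and 62.8% of them lay below Upf3b. Between the stages in WT, their median was -1.77 (-0.31 on the autosomes), 403 were called lower (62.2%) and 6 higher (0.926%), and 48.5% lay below Upf3b. Between the stages in Cnot4-null the median was -0.35, with 46.9% below Upf3b, and for the interaction it was 1.93, with 39.35% below it. The changes of Upf3b in these comparisons lay inside the range from the lower to the upper quartile of X-linked genes. At LZ the median of X-linked genes was 0.12, and 95.2% of them lay below the 0.87 of Upf3b, a value that did not pass its own test. Whether Upf3b differs from the other X-linked genes was not tested.

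**Figure D5:**
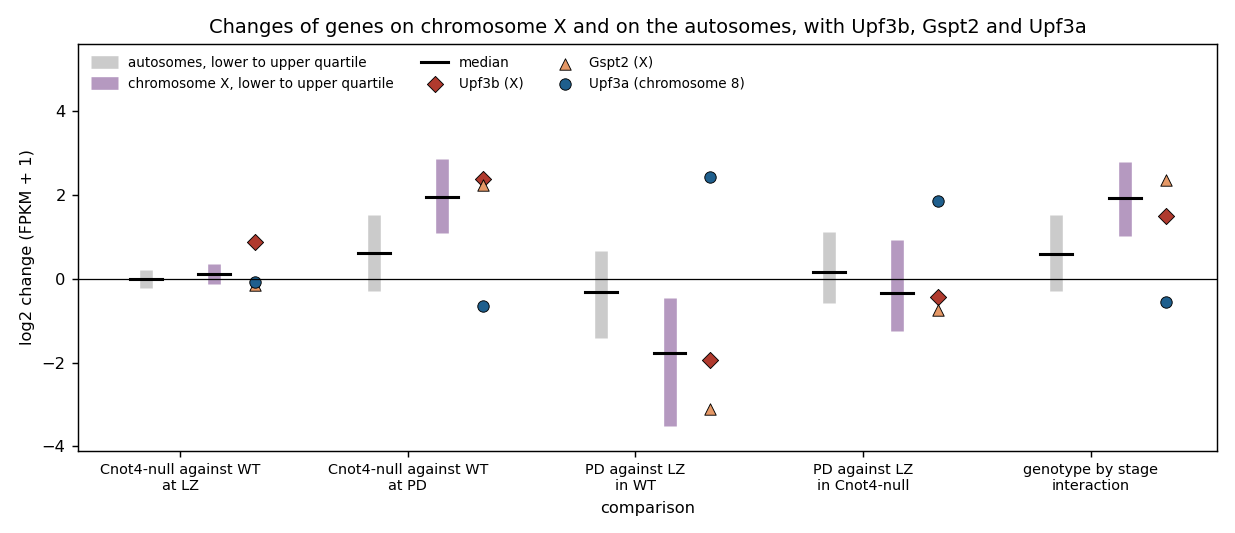
Log2 changes of FPKM + 1 (vertical axis) in the 5 comparisons (horizontal axis) for autosomal genes (grey) and X-linked genes (purple), with boxes from the lower to the upper quartile and lines at the median; the diamond is Upf3b, the triangle Gspt2 and the circle Upf3a. For genotype at PD, Upf3b (2.37) and Gspt2 (2.23) lie near the X-linked median of 1.95, and Upf3a lies at -0.65.

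Of the other NMD factors, a list of 12, the X-linked Gspt2 (release factor eRF3b, which acts in translation termination) was at 10.9 and 8.61 FPKM at LZ and 0.168 and 0.307 at PD in WT, and 8.58 and 8.81 at LZ and 3.25 and 6.85 at PD in Cnot4-null. Like Upf3b, it was lowest in the WT PD libraries. It fell between the stages in WT (-3.11, limma adjusted p = 0.000198), rose with genotype at PD (2.23, adjusted p = 0.00187) and passed the interaction (2.37, adjusted p = 0.0117). With quantile normalization it kept these signs but passed neither for genotype at PD (1.00, adjusted p = 0.0560, range over 16 alternatives 0.000650 to 0.0560) nor for the interaction (1.13, adjusted p = 0.146, range over 15 alternatives 0.00347 to 0.146). The interaction call was also lost without Cnot4-null LZ replicate 2 (adjusted p = 0.0502), WT PD replicate 1 (0.0635) or WT PD replicate 2 (0.0565). For genotype at PD, 2 of the 12 were higher (41.6% of all genes) and 3 lower (11.5%), with a median of 0.04, against 1 and 6 with quantile normalization, and 1 and 10 with the rescaling. Besides Gspt2, Etf1 (release factor eRF1) was higher by 1.19, a sign that the rescaling turned (-0.18), and Tdrd6 (a chromatoid body protein, -1.25), Nbas (-1.01) and Ncbp1 (a cap-binding subunit, -0.86) were lower.

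Between the stages in WT, 4 of the 12 rose (21.6% of all genes) and 6 fell (36.2%), with a median of -0.50, and 5 rose with both other scalings, where 3 fell with quantile normalization and 2 with the rescaling. Tdrd6 (5.68), Smg9 (listed as 1500002O20Rik, part of the SMG1 complex, 3.02), Nbas (1.97) and Ncbp1 (1.78) were higher. Gspt2, Etf1 (-1.66), Ncbp2 (-1.23) and Smg8 (listed as 1200011M11Rik, another part of the SMG1 complex, -0.76, but 0.04 with the rescaling) were lower. In Cnot4-null, 5 rose (27.8% of all genes) and 3 fell (18.2%), with a median of -0.15, against 3 and 5 with quantile normalization and 2 and 7 with the rescaling. Tdrd6 (5.01), Smg9 (2.34), Nbas (1.04) and Dhx34 (an RNA helicase, 0.86) led the first, and Etf1 (-1.02), Ncbp2 (-0.99) and Gspt1 (release factor eRF3a, -0.72) made up the second. Dhx34 was at 0.05 with quantile normalization and 0.40 with the rescaling. At LZ, limma called 0 of the 12 between genotypes and 1 had an unadjusted p under 0.05, and for the interaction Gspt2 was the only one called on the deposited scale (26.0% of all genes were higher and 3.97% lower). Quantile normalization called 0 higher (9.74% of all genes) and 1 lower (12.4%), and the rescaling 1 higher (13.6%) and 9 lower (32.4%).

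The exon junction complex, which UPF3B contacts, was followed with 9 genes. Magoh, a core subunit, was at 688 and 587 FPKM at LZ and 81.1 and 75.8 at PD in WT, and 704 and 648 at LZ and 257 and 191 at PD in Cnot4-null. It was lower in all PD libraries and lowest in WT PD. Between the stages in WT 5 of the 9 fell (36.2% of all genes) and 0 rose (21.6%), with a median of -1.62, against 6 and 0 with quantile normalization and 5 and 1 with the rescaling. Magoh (-3.00), Rnps1 (-2.63), Rbm8a (-1.83) and Sap18 (-1.79) were among those that fell. In Cnot4-null 6 fell (18.2% of all genes; 7 with each other scaling) and 0 rose, with a median of -1.05, among them Magoh (-1.60), Magohb (-1.43), Rbm8a (-1.37) and Rnps1 (-1.32). For genotype at PD, 5 of the 9 were higher on the deposited scale (41.6% of all genes) and 0 lower (11.5%), with a median of 0.56, against 5 higher and 1 lower with quantile normalization, and 0 higher and 6 lower with the rescaling. Magoh was at 1.49 (1.68 with quantile normalization and 0.06 with the rescaling). Sap18 (1.28), Rnps1 (1.20) and Rbm8a (0.60) turned sign with the rescaling. Magoh (1.40) and Rnps1 (1.30) were the 2 called for the interaction (26.0% of all genes were higher) and turned sign with the rescaling, which called 0 higher and 5 lower. At LZ, limma called 0 of the 9 between genotypes, with 0 at an unadjusted p under 0.05.

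The same comparisons were made for 16 genes with transcripts reported elsewhere as NMD targets. One value per gene cannot separate the transcripts of that gene, so levels of the targeted transcripts themselves were not measured. For genotype at PD, 8 of the 16 were higher (41.6% of all genes) and 3 lower (11.5%), against 5 and 2 with quantile normalization and 3 and 9 with the rescaling. Their median was 0.46 against 0.66 over all genes, 0.50 against -0.10 with quantile normalization and -0.96 against -0.21 with the rescaling, so its side of the median of all genes turned with the scaling. Gadd45a, a stress response gene, had a value of 0 in each WT library at PD, against 5.17 and 13.0 FPKM in Cnot4-null. Atf3, a stress-induced transcription factor, was listed at 0 in all 4 LZ libraries and reached 2.63 and 10.7 FPKM in Cnot4-null at PD. No fold is given against a group at 0. Gadd45b (2.69) and Hnrpdl (an RNA-binding protein, 1.46, but 0.05 with the rescaling) were also higher. Ddit3 (-1.21), Tra2b (-0.99) and Eif4a2 (-0.66) were lower.

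Between the stages in WT, 4 of these genes rose (21.6% of all genes) and 8 fell (36.2%), with a median of -0.58, against 2 and 8 with quantile normalization and 7 and 6 with the rescaling. Ddit3 (3.78), Nat9 (1.23), Snhg12 (0.88) and Tra2b (0.58, but 0.05 with quantile normalization and 1.46 with the rescaling) rose. Gadd45b (-4.20), Hnrpdl (-3.01) and Srsf6 (-1.91) fell, as did Gadd45a, which went from 36.6 and 22.2 FPKM to 0. In Cnot4-null 2 rose (27.8% of all genes) and 8 fell (18.2%), with a median of -0.63, against 2 and 9 with quantile normalization and 2 and 11 with the rescaling. On the deposited scale Atf3 and Ddit3 (2.38) were higher and Gadd45a (-1.76), Hnrpdl (-1.60), Gadd45b (-1.54) and Srsf3 (-1.53) lower. For the interaction 4 were higher (26.0% of all genes) and 1 lower (3.97%), against 2 and 0 with quantile normalization and 3 and 11 with the rescaling. Gadd45b was at 2.66, Hnrpdl at 1.41 (-0.03 with the rescaling) and Tra2b at -1.14. At LZ limma called 0 of the 16, with 0 at an unadjusted p under 0.05.

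Within the 7 members, patterns over the 8 libraries are given as description, since libraries of a group are alike by design. Pearson r of log2(FPKM + 1), n = 8, was 0.931 between Upf3a and Smg5, both high at PD, and 0.878 between Upf1 and Smg6. It was -0.847 between Upf3a and Smg1 and -0.670 between Upf3a and Upf3b. Upf3b and Smg1 had an r of 0.752.

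The 3 genes most like each member were taken from 9347 others with a mean of at least 5 FPKM, again by Pearson r over the 8 libraries. For Upf3a they were Cdkl1 (0.9996), Acsl6 (0.999) and 0610030E20Rik (0.999), and Cdkl1 went from 0.2095 and 0.595 FPKM in WT LZ to 27.8 and 24.9 in WT PD. For Upf3b they were Arih1 (0.981), Snora64 (0.981) and Clint1 (0.979), none of them on the X chromosome, and Arih1 was lowest in WT PD at 10.9 and 10.45 FPKM. Smg5 was most like H2afy (0.990), Cndp2 (0.987) and 1110002L01Rik (0.986), and Smg1 most like A930041C12Rik (0.991), Fbxo17 (0.981) and Epb4.1l5 (0.978). Upf2 was most like AU019823 (0.983), Hemt1 (0.969) and Fam58b (0.965). Upf1 was most like Rcc1 (0.965), Gm15350 (0.956) and Rrbp1 (0.951), and Smg6 most like Cdan1 (0.960), 1700029N11Rik (0.956) and Cypt7 (0.938).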

How the data were processed

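RNA of 8 libraries (4 groups of 2) was deposited as FPKM tables; per the submitters' processing notes, the authors trimmed reads to 50 bases, aligned them to mm9 with TopHat2 2.1.1 and computed FPKM from uniquely mapped reads with Cufflinks 2.2.1 and UCSC gene models. A gene was kept where any library had FPKM above 1 (15899 of 23235), and log2(FPKM + 1) was fitted with limma 3.58.1 in R 4.3.3, as 1 model of 4 groups with 5 contrasts, eBayes with trend, two-sided p adjusted by Benjamini-Hochberg within each contrast over all genes kept, and a threshold of 0.05 on the adjusted p. The fit was tested on simulated data in which only a small part of the genes was changed, in Cnot4-null PD alone. That simulation does not cover a difference as broad as genotype at PD in these data (53.1% of genes called). Summaries were made in Python 3.11.15 with pandas 2.3.3, numpy 2.4.6 and scipy 1.17.1, and figures with matplotlib 3.10.9. Alternatives were no filter, a mean FPKM of at least 5, a pseudocount of 0.1, quantile normalization, rescaling of libraries to the same median, eBayes without trend, only the libraries compared, a replicate block, and leaving out each library. The authors describe duplicates as biological replicates. Depth was estimated from what 1 fragment is worth in genes with 1 transcript over 2000 nt, and gives counting error only. All members were named in every contrast, with up to 4 list genes called per contrast and direction by absolute change and the 3 most alike genes of each member; Cnot4 was given as the targeted gene. The members and lists were chosen with earlier results of these data known. Sequences are from RefSeq on GRCm38.p6 (7 of 7 members matched by symbol) and positions from GENCODE vM1 on NCBIM37 (mm9), which gave a chromosome for 21870 of 23235 symbols. Older symbols were used where the tables have them. The markers Meiob and Rhox5 are not among the symbols and were left out.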

Additional observations from a re-analysis of the deposited data

Results flagged for a closer look

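The genotype by stage interaction, a test of the difference between the 2 stages in the genotype effect, called Upf3b and no other member on the deposited scale, where 30.0% of all genes were called, 26.0% higher and 3.97% lower. It gave a log2 value of 1.50 (limma adjusted p = 0.0279), larger at PD than at LZ, and passed in 7 of 15 alternatives (adjusted p 0.0139 to 0.809). It did not pass with quantile normalization (0.17, adjusted p = 0.809), with libraries rescaled to the same median (0.62, adjusted p = 0.253), which called the other 6 members lower, or without any 1 of the 6 WT and Cnot4-null LZ libraries, where the adjusted p ran from 0.0571 (without WT LZ replicate 1) to 0.126 (without WT PD replicate 2). The 6 members called lower with the rescaling share the same factor within each library and do not count as separate results. On the deposited scale the median of the 648 X-linked genes tested was 1.93, above the value of Upf3b, and 54.2% of them were called higher.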

How the results depend on the processing

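Of the fitted changes of the 7 members under the alternatives, 491 kept their direction and their side of the threshold, 26 kept their direction and passed the threshold only under an alternative, 10 kept it and no longer passed, and 26 turned direction, 6 of which passed, all with the rescaling; the cause was not tested except where the construction shows it. With quantile normalization, the genotype change at PD turned to -0.0461 for Upf1, -0.31 for Smg1 and -0.19 for Smg6, and the interaction to -0.45 for Upf1 and -0.68 for Smg1. With libraries rescaled to the same median, genotype at PD turned to -0.72 for Upf1, -0.96 for Smg1 and -0.92 for Smg6, stage in WT to 0.62 for Upf2 and 0.35 for Smg1, stage in Cnot4-null to -0.24 for Upf1, -0.0914 for Smg5 and -0.24 for Smg6, and the interaction to -1.12 for Upf1 and -1.36 for Smg1. Members called, with the share of all genes called, went from 1 (53.1%) to 2 (mean FPKM of at least 5, 55.8%) and 7 (rescaled, 63.4%) for genotype at PD, from 3 (57.8%) to 4 (quantile, 56.2%, and only the libraries compared, 64.0%) and 6 (rescaled, 59.4%) for stage in WT, from 1 (46.0%) to 3 (quantile, 50.1%) and 4 (rescaled, 53.5%) for stage in Cnot4-null, and from 1 (30.0%) to 0 (quantile, 22.1%) and 6 (rescaled, 46.0%) for the interaction. All genes called went to 4 for genotype at LZ and 3955 for stage in Cnot4-null with only the libraries compared (fewer samples), to 5219 for genotype at PD with a mean FPKM of at least 5 (9348 genes tested), and to 7313 for the interaction with the rescaling. The log2 ratio of Upf3a to Upf3b, PD minus LZ, was 5.51 in WT with a pseudocount of 0.1 and 3.29 with quantile normalization, and 2.87 in Cnot4-null with quantile normalization. Leaving out each library in turn, where a lone sample in a group is assumed to vary like the other groups, gave -0.0516 to 0.29 for Upf2 and -0.20 to 0.0329 for Upf3a for genotype at LZ, -0.20 to 0.0849 for Upf2 for genotype at PD, -0.17 to 0.31 for Upf1 for stage in WT, and -0.27 to 0.29 for Smg1 and -0.15 to 0.14 for Smg6 for the interaction. Members called ranged from 1 to 3 for genotype at PD (25.5% to 62.6% of all genes), 2 to 4 for stage in WT (43.6% to 63.9%), 1 to 2 for stage in Cnot4-null (29.2% to 52.4%) and 0 to 2 for the interaction (10.4% to 49.9%), and all genes called from 9 to 25, 4057 to 9956, 4644 to 8333 and 1656 to 7929 for genotype at LZ, genotype at PD, stage in Cnot4-null and the interaction. Equal replicate numbers share only a number as far as the labels say; their differences correlated from -0.0651 to 0.194 between groups, and with a replicate block the number of members called was 0, 1, 3, 1 and 1 in the 5 comparisons, as without it, with 4355 in place of 4770 genes called for the interaction. Depth limits Upf3b in WT PD most, at about 6.60 to 11.1 fragments.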
